A study of Mus musculus with 4 samples.

Results

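Matrix fibroblasts, the interstitial fibroblasts that lie beside the future alveoli, were picked out of 4 single-cell libraries of mouse lung at embryonic stage E18.5 by the transcripts they carry. A barcode counted as a matrix fibroblast when it passed the filters on genes (at least 500) and mitochondrial UMIs (at most 20%), gave at least 0.5% of its UMIs to the collagens Col1a1, Col1a2 and Col3a1, and had no UMI of Epcam, Cdh5 or Ptprc. It also needed UMIs of at least 4 of 8 markers (Tcf21, Hsd11b1, Dpep1, Col13a1, Slc36a2, Limch1, Mme and Gpx3), of fewer than 3 of 5 adventitial markers, and of fewer than 4 of 8 myofibroblast markers. The rule found 3281 cells among 27815 barcodes, 959 and 1110 in wild type replicates 1 and 2 and 511 and 701 in Dnmt1 CKO replicates 1 and 2. The control lungs are labelled wild type. The mutant lungs carried Tbx4-rtTA, Tet-O-Cre and Dnmt1-D/D, so that an activator driven by Tbx4, which works only with doxycycline, switches on Cre in lung mesenchyme, where a part of Dnmt1 is then deleted. The labels do not give the doxycycline schedule, the sequence that is deleted, or whether the libraries are of different animals; p-values therefore measure the spread between these libraries.

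Matrix fibroblasts lie under the alveolar epithelium, make collagen and elastic fibre proteins, store lipid in some of their forms, and send Fgf10, Wnt2 and other signals to epithelial and endothelial neighbours. The transcription factor Tcf21 marks them, and Hsd11b1 lets them reactivate glucocorticoid, the hormone that drives lung maturation before birth. DNA methyltransferase 1, made from Dnmt1, copies methylation of CG dinucleotides to the new strand after replication, and genes that somatic cells keep silent by methylated CG-rich promoters, many of them active in germ cells, depend on it.

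The libraries held 48213065 to 56760219 UMIs. The matrix fibroblasts in them held 4408444 to 9479734 UMIs, with medians of 6442 and 8147 UMIs per wild type cell against 8022 and 6337 per mutant cell, so depth per cell did not separate the genotypes. No barcode was shared between the matrix fibroblasts of any 2 libraries. By Y-linked transcripts, the first wild type library and the second Dnmt1 CKO library came from females and the others from males. Scrublet, a doublet caller, marked 15, 6, 1 and 3 of the members, which stayed in.

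Markers of other cells were set beside the label. The 8 matrix markers summed to 5300 and 5156 CPM (UMIs scaled to a total of 1000000 UMIs over the cells of a library) in wild type members and to 1765 and 2826 CPM in Dnmt1 CKO members, with none of the 8 at 0. Lists of 10 endothelial and 10 immune markers summed to 47.7 to 75.4 and 31.4 to 87.2 CPM over the 4 libraries, with Cdh5 and Ptprc at 0 by the rule. The 14 epithelial markers (Epcam at 0 by the rule) summed to 580.5, 474.4, 412.6 and 1253 CPM, against at least 65210 CPM in epithelial cells of the same libraries. Haemoglobin and other erythroid genes (7 of them) summed to 3583, 812.6, 7035 and 3078 CPM. Chondrocyte and Schwann cell markers reached 10.2 and 5.75 CPM at most. The mesothelial marker Msln stood at 93.6 and 9.07 CPM in wild type replicates 1 and 2 and at 72.8 and 17.9 CPM in those of Dnmt1 CKO. Upk3b stood at 38.9, 2.00, 34.0 and 0 CPM in the same order. The other mesothelial markers were also higher in replicate 1 than in replicate 2 of each genotype. The 8 matrix markers chose the members, so their presence does not test the name. Replicate 2 of Dnmt1 CKO carried the most epithelial and replicate 1 of Dnmt1 CKO the most erythroid RNA. What part this had in any gene difference was not tested.

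The promoters of 5 genes are shown because the results turn on them: Dazl, Rpl39l and Slc25a31, germ cell genes that were at or near 0 in wild type members, Saa3, which rose from a low level, and Nppc, which fell the furthest. Each window runs from 250 bases before to 50 bases after the start of the gene, 5′ to 3′ on the gene's strand, from RefSeq on GRCm38.p6, with every CG in capitals. They lie at chr17:50293571-50293870 (minus strand), chr16:10169978-10170277 (plus), chr3:40708621-40708920 (plus), chr7:46715627-46715926 (minus) and chr1:86670524-86670823 (minus).
Dazl: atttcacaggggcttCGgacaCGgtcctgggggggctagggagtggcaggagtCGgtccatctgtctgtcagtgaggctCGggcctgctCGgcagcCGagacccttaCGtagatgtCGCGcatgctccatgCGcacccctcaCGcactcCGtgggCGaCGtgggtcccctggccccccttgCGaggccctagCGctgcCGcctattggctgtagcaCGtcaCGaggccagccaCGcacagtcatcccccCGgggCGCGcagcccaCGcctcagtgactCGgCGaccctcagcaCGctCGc
Rpl39l: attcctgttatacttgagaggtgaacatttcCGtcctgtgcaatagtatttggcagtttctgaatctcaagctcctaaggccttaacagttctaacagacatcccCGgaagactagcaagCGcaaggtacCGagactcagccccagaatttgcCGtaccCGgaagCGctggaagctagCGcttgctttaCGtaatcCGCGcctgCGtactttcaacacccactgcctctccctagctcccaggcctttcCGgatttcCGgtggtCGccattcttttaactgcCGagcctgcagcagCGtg
Slc25a31: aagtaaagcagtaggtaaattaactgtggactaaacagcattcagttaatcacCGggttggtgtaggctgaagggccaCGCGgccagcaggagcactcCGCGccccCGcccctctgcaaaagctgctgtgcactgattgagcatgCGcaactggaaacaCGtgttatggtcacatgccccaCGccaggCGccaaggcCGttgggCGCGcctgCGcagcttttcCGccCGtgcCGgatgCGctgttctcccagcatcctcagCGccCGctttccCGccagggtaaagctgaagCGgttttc
Saa3: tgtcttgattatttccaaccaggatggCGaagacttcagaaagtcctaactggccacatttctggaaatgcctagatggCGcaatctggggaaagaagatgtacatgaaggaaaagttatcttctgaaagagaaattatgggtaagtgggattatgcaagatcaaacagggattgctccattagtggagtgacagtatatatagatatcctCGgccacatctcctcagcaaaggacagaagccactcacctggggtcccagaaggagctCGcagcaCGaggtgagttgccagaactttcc
Nppc: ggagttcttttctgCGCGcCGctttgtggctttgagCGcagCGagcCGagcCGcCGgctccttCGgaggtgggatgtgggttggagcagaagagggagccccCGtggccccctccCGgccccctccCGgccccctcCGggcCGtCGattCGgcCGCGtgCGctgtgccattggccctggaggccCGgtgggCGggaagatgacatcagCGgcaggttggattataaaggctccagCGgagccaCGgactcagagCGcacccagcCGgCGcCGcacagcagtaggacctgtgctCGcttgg
Dazl, Rpl39l and Slc25a31 held 28, 17 and 22 CGs, counts reached by 14.2%, 31.4% and 23.1% of all 32851 windows of this length, whose median was 7. The Saa3 window held 5 (reached by 62.0% of windows), whereas the Nppc window held 29 (12.9%), the most of the 5. For genes of a list with several windows, the one with the fewest CGs was taken, whereas the values for all windows count every one. Among 42 germline genes with a window, 18 held TCCCGC and 15 held CACGTG on either strand. These were 42.9% and 35.7%, against 19.98% and 7.15% of all windows. Each motif holds a CG, and the germline windows held a median of 17 CGs against 7 in all windows. What part CG content had in these shares was not tested. Among 18 genes of the matrix fibroblast list with a window (median 13.5 CGs), 7 held TCCCGC and 1 held CACGTG, 38.9% and 5.56%. Such a match is a description and no evidence of binding, and methylation itself was not measured in these files.

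The genes of the rule itself stood lower in Dnmt1 CKO members, and these values are a description because they chose the cells. Tcf21 had 624.9 and 596.5 CPM in the controls and 262.2 and 368 CPM in the mutants. Hsd11b1, which makes active glucocorticoid, stood at 803 and 569.2 against 220 and 381.8 CPM. Limch1, an actomyosin regulator, was the most abundant of the 8, at 1746 and 2027 against 595.4 and 1015 CPM. None of these groups overlapped, which was also so for 48.51% of the 12930 genes tested. The neutral endopeptidase gene Mme (140.1 and 218.5 against 26.8 and 45.8 CPM) and the plasma glutathione peroxidase gene Gpx3 (765.4 and 549.6 against 133.6 and 231.8 CPM) had the largest differences, with log2 fold changes of -2.27 and -1.84. The other members of the set ran from -0.79 for Col13a1 to -1.30 for Slc36a2. A cell with UMIs of fewer than 4 of these genes is not a member, so the number of cells and the level per cell cannot be told apart.

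**Figure D1:**
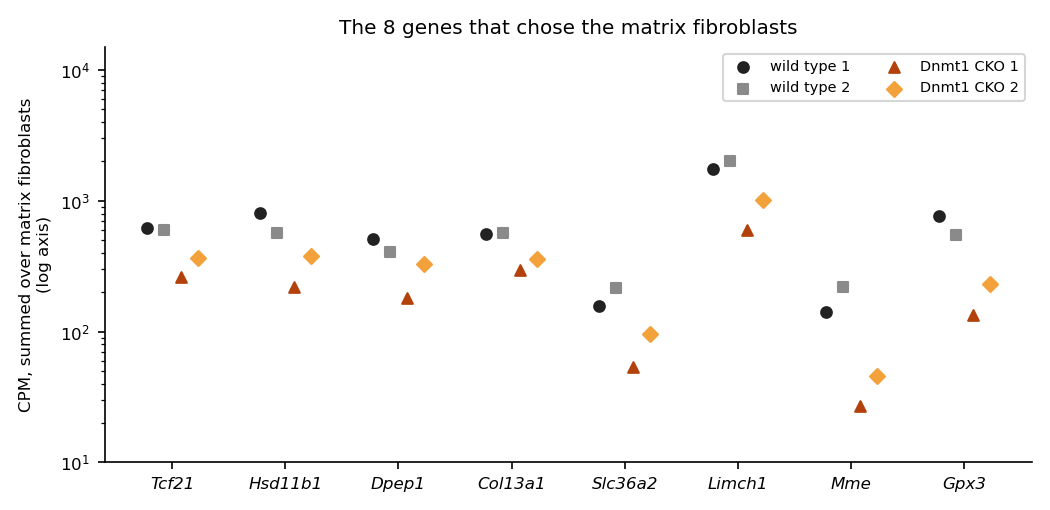
Levels of the 8 markers that chose the matrix fibroblasts, as CPM on a log axis, 1 point per library (2 of wild type and 2 of Dnmt1 CKO). All 8 markers sit lower in both Dnmt1 CKO libraries than in both wild type libraries, Mme and Gpx3 by the most. Among the 12930 genes tested, 48.51% had groups that do not overlap, in either direction.

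Matrix fibroblasts made up 69.6% and 74.0% of the gated mesenchymal cells in wild type (exact binomial 95% intervals 67.1% to 72.1% and 71.7% to 76.2%) and 32.4% and 42.5% in Dnmt1 CKO (30.1% to 34.7% and 40.1% to 45.0%). The mean share was 71.8% ± 3.05 against 37.5% ± 7.19 (SD, n = 2), given with no test because the rule uses marker levels that differ between the genotypes. At the limit of 4 markers the cells thinned out differently. Wild type members held a median of 7 and 7 markers and Dnmt1 CKO members 5 and 5. Members with exactly 4 markers were 44 and 47 cells in wild type against 217 and 200 in Dnmt1 CKO. Cells just outside, with 3 markers, numbered 27 and 25 against 286 and 205. At 3 of 8 markers the shares would have been 71.6%, 75.6%, 50.5% and 55.0%, and at 5 of 8 they would have been 66.4%, 70.8%, 18.6% and 30.4%. With each cell thinned to 3000 UMIs before the rule was applied they were 68.0%, 69.4%, 12.5% and 28.0%. The share was lower in Dnmt1 CKO at each of these limits, with differences of -20.89 to -48.43 percentage points.

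Dnmt1 itself (ENSMUSG00000004099.16, chromosome 9, 20907209 to 20959888, minus strand) stood at 27.75 and 25.95 CPM in wild type members (180 and 246 UMIs) and at 14.7 and 15.55 CPM in Dnmt1 CKO members (65 and 73 UMIs). Both mutant libraries lay below both wild type libraries, where 48.51% of the 12930 genes tested had groups that do not overlap, in either direction. The log2 fold change was -0.84 (SE 0.212), and with the quasi-likelihood test of edgeR and Benjamini-Hochberg adjustment over all genes tested the adjusted p was 0.0556, just past the threshold of 0.05. It passed with no filter on low counts (-0.87, adjusted p = 0.0155), with the replicate block (-0.83, adjusted p = 0.0121), with at least 3 of 8 markers (-1.12, adjusted p = 0.0171), with 3 of 6 markers (-1.04, adjusted p = 0.0231) and with equal cells per library (-0.92, adjusted p = 0.0415). The deleted part of the gene is not named in the labels, and the deletion would go unseen by a 3′ tag that lies outside of it. Endothelial cells of the same libraries held Dnmt1 at 70.2, 60.5, 62.5 and 60.1 CPM.

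Germ cell genes divided the mutant members. Dazl, Rpl39l, Tex101, Tuba3a, Tuba3b, Slc25a31, Taf7l, Tex19.1 and Fkbp6, 9 genes normally used in germ cells, gave 2 or more UMIs in none of the 959 and 1110 wild type members, which allows a share of up to 0.384% and 0.332% (exact 95% upper bounds, counting error only). They did so in 398 of 511 members (77.9%, 74.0% to 81.4%) of replicate 1 of Dnmt1 CKO and in 362 of 701 (51.6%, 47.9% to 55.4%) of replicate 2 of Dnmt1 CKO. No UMI of the 9 genes was found in 92 and 304 mutant members, and the 21 and 35 with exactly 1 UMI were left out of both classes below. Epithelial cells of the mutant libraries had 2 or more such UMIs in 7.96% and 7.32%, endothelial cells in 10.4% and 8.67% and immune cells in 6.8% and 5.57%. Their medians were 10298 and 9282, 6471 and 4561, and 9314 and 7483.5 UMIs. Whether the Cre acted in any of these cells was not tested. The shares in members lay far above those of the epithelial, endothelial and immune cells at a like depth (medians 8022 and 6337 UMIs). They were not particular to members among mesenchymal cells. Alveolar myofibroblasts of the mutant libraries had 2 or more such UMIs in 84.6% and 56.25%, and adventitial fibroblasts in 72.4% and 44.4%. The gated mesenchymal cells in none of these groups had them in 87.8% and 75.8%. With cells thinned to 3000 UMIs, Dazl alone was found in 0%, 0%, 46.9% and 38.0% of members, against 3.28% to 8.10% of the mutant epithelial, endothelial and immune cells. Without thinning it was found in 0%, 0.0901%, 55.2% and 43.2% of members.

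The share of germline-positive cells ran opposite to the number of matrix markers a cell held. In replicate 1 of Dnmt1 CKO it was 85.7% at 4 markers, 75.6% at 6 and 33.3% at 8, and in replicate 2 of Dnmt1 CKO it was 77.5%, 42.6% and 9.30%. Cells just outside the rule, with 3 markers, stood at 91.6% and 83.4%. Dnmt1 in replicate 1 of Dnmt1 CKO stood at 7.14 CPM at 4 markers and 54.6 CPM at 8, whereas in replicate 2 of Dnmt1 CKO it stood at 7.21 CPM at 4, 22.6 CPM at 7 and 12.5 CPM at 8. In wild type the level at 4 markers was 28.3 and 38.8 CPM and at 8 it was 15.5 and 20.4 CPM. The mutant cells with the most matrix markers were thus the ones in which germ cell transcripts were found least often, and only 9 and 43 mutant cells held all 8.

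**Figure D2:**
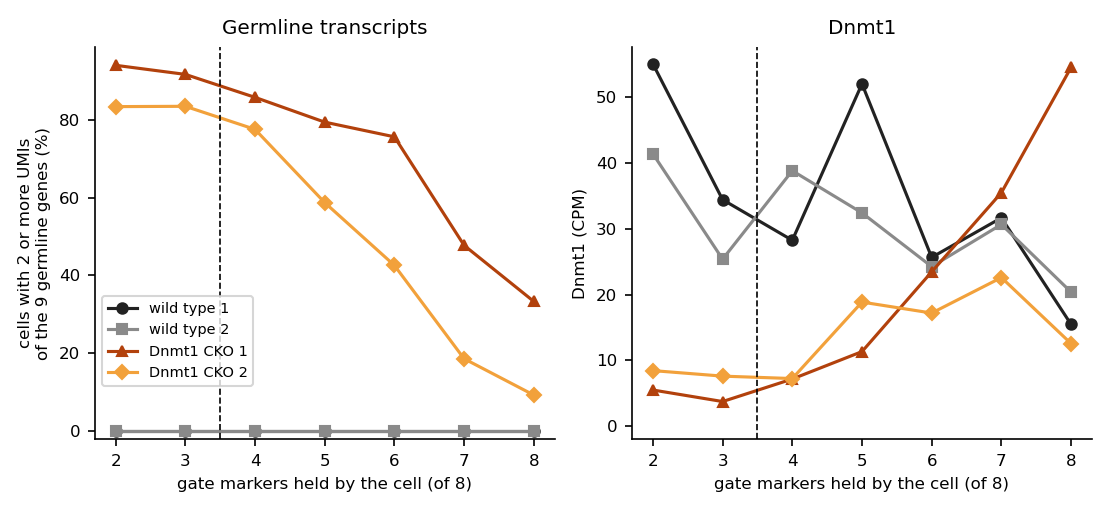
Left, percent of cells with 2 or more UMIs of the 9 germ cell genes, and right, Dnmt1 in CPM, by the number of matrix markers a cell held, 1 line per library, with the rule's limit of 4 dashed. In both Dnmt1 CKO libraries the germline-positive share falls toward 8 markers, to 33.3% and 9.30%, while both wild type libraries stay at 0% among members.

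Over all genes, 694 of 12930 tested were called between Dnmt1 CKO and wild type members (5.37%), 445 higher (3.44%) and 249 lower (1.93%). Without replicate 2 of wild type the number called was 275, and without replicate 2 of Dnmt1 CKO it was 1152. Dazl led the 12 largest rises and Nppc the 12 largest falls. Log2 fold changes below are Dnmt1 CKO over wild type and carry edgeR's adjusted p.

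**Figure D3:**
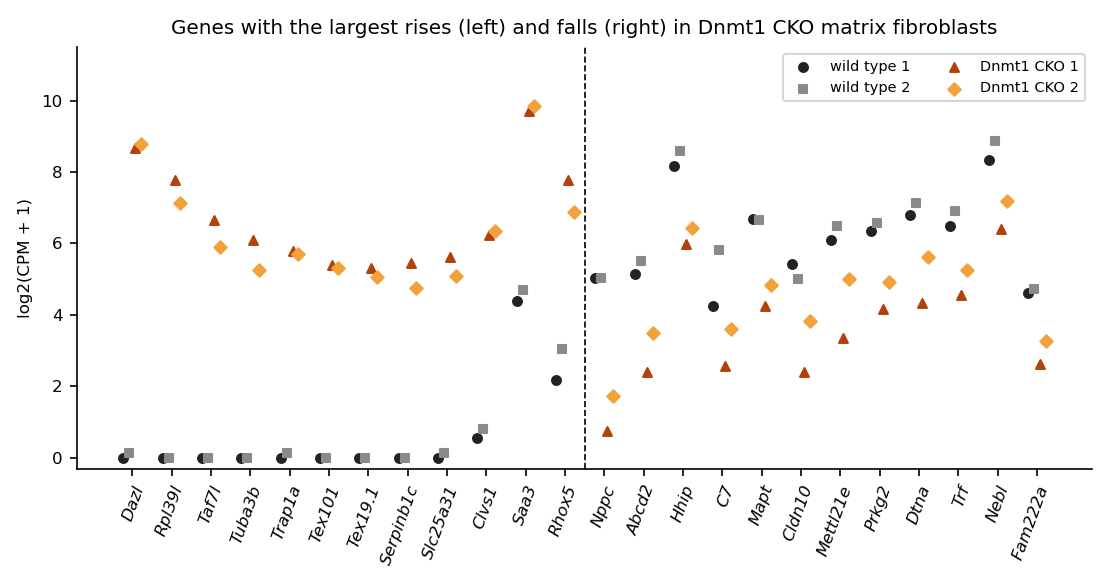
Levels of the 12 genes that rose most and the 12 that fell most among matrix fibroblasts, as log2(CPM + 1), 1 point per library. The rule that named the 24 genes required groups that do not overlap, so their separation is given by that choice. Dazl goes from 0 and 0.105 CPM to 407 and 437 CPM.

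Dazl (chromosome 17, 50279395 to 50293636, minus strand), whose protein binds RNA in germ cells, went from 1 UMI in the 2 wild type libraries together to 3845 UMIs in the mutant ones. That is 0 and 0.105 CPM against 407 and 437 CPM, a ratio of 6745 with a counting interval of 1210 to 266500. Rpl39l, a ribosomal protein made mainly in testis, had no UMI in wild type against 217 and 139 CPM in Dnmt1 CKO, at least 939.7-fold higher against a floor of 3 UMIs over the wild type group. Taf7l, a transcription factor subunit of male germ cells, was at least 419-fold higher, with 100.3 and 58.4 CPM in the mutant libraries. The alpha-tubulin gene Tuba3b (at least 278-fold) is nearly identical to Tuba3a, so its counts are uncertain. Tex101 and Tex19.1, both of germ cells, and the serpin Serpinb1c were at least 212-fold, 189-fold and 181-fold higher, each with no UMI in wild type. Each of these genes without wild type UMIs was found in both mutant libraries, which the rule that named them required.

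Trap1a, a tumour rejection antigen made in placenta, stood at 0 and 0.105 CPM against 54.7 and 51.4 CPM, a ratio of 846 (counting interval 151 to 33470). Slc25a31, the ADP/ATP carrier of sperm, stood at 0 and 0.105 CPM against 47.9 and 33.2 CPM, a ratio of 644 (115 to 25500). Clvs1, which encodes a clathrin-associated lipid-binding protein, stood at 0.463 and 0.738 CPM against 74.2 and 79.9 CPM, on the log2 scale a difference of 6.34 (SE 0.282, adjusted p = 1.154e-05). Of the 12, Saa3 reached the highest level. This acute-phase serum amyloid A gene (chromosome 7, 46711998 to 46715700, minus strand) stood at 19.9 and 25 CPM in controls and 841 and 928 CPM in mutants (log2 fold change 5.25, SE 0.244, adjusted p = 1.154e-05). Rhox5, a homeobox gene of reproductive tissue, rose from 3.55 and 7.28 to 216 and 116 CPM (4.8, SE 0.385, adjusted p = 0.0001461).

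Saa3 was not spread evenly over the members. At 3000 UMIs a cell it was found in 1.19% and 1.75% of wild type members and in 23.8% and 23.8% of mutant members (1.77%, 3.15%, 30.5% and 29.2% without thinning). Germline-positive cells carried it in 27.0% and 40.2% and germline-negative ones in 10.9% and 5.08%. Epithelial cells of the 4 libraries carried it in 0.861%, 2.23%, 10.8% and 8.31%, and immune cells in 0.225%, 0.658%, 3.56% and 4.43%. Endothelial cells carried it in 0%, 0.135%, 1.45% and 6.19%. Whether epithelial cells make Saa3 themselves was not tested. Median depths were 9242 to 11652 UMIs in epithelial cells and 5978 to 9314 UMIs in immune cells. The share in germline-negative members was that of the epithelial cells in replicate 1 of Dnmt1 CKO (10.9% and 10.8%) and below it in replicate 2 of Dnmt1 CKO (5.08% and 8.31%).

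Nppc fell the furthest. It encodes C-type natriuretic peptide (chromosome 1, 86666291 to 86670571, minus strand) and stood at 31.6 and 31.4 CPM in controls and 0.681 and 2.34 CPM in mutants (log2 fold change -4.12, SE 0.374, adjusted p = 0.0002914). At 3000 UMIs a cell it was found in 7.14% and 7.29% of wild type members and 0.394% and 0.581% of mutant members (12.7%, 13.7%, 0.391% and 1.43% without thinning). Wild type epithelial cells held it in 0.287% and 0.297% and endothelial cells in 0.879% and 0.942%. In the mutant libraries epithelial cells held it in 0% and 0.308%, endothelial cells in 0% and 0%, and immune cells in 0.142% and 0.164%, each below the members of the same library. The exact 95% intervals of the mutant members, 0.0477% to 1.41% and 0.158% to 1.48%, overlapped those of the epithelial cells, 0% to 0.866% and 0.0635% to 0.897%. Hhip, a secreted inhibitor of hedgehog signals, fell from 285 and 387 CPM to 62.6 and 85.4 CPM (-2.20, SE 0.242, adjusted p = 0.001057). The microtubule-binding protein tau, from Mapt, fell from 101 and 99.4 CPM to 17.9 and 27.7 CPM (-2.14, SE 0.251, adjusted p = 0.001487).

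The remaining large falls lay between -1.77 and -2.40. Abcd2, a peroxisomal fatty acid transporter, fell from 34.7 and 44.3 CPM to 4.31 and 10.2 CPM (-2.40, adjusted p = 0.004596). Prkg2, a cGMP-dependent kinase, fell from 80.6 and 94.5 CPM to 16.8 and 29.2 CPM (-1.93, adjusted p = 0.004672). Transferrin, from Trf, fell from 88.5 and 119 CPM to 22.5 and 37.1 CPM (-1.81, adjusted p = 0.006446). These held in every fit that left a library out, as did Fam222a (-1.77, adjusted p = 0.0076). The next 5 did not. The complement gene C7 (-2.16, adjusted p = 0.04299), at 18.04 and 55.2 against 4.99 and 11.1 CPM, was not called without replicate 2 of wild type (-1.16, adjusted p = 0.258). The claudin gene Cldn10 (-2.03, adjusted p = 0.02234) was not called without replicate 1 (-1.78, adjusted p = 0.0773) or 2 of wild type (-2.24, adjusted p = 0.0507), nor was Mettl21e (-1.93; -2.09, adjusted p = 0.0616, and -1.75, adjusted p = 0.141). The dystrobrevin gene Dtna (-1.90) and the nebulette gene Nebl (-1.79) lost their calls without replicate 2 of wild type (-1.75, adjusted p = 0.0883, and -1.52, adjusted p = 0.0531).

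Genes known from matrix fibroblasts, but not used by the rule, were lower more often than genes at large. Of 25, none rose and 10 fell, against 3.44% and 1.93% of all genes tested, and their median log2 fold change was -0.81 where that of all genes was -0.004. The list was drawn up with earlier results of these data known. Ces1d, a lipid-handling carboxylesterase, fell from 181 and 122 CPM to 45.8 and 47.5 CPM (-1.72, SE 0.240, adjusted p = 0.00417). Fgfr4, a receptor for fibroblast growth factors, fell from 66.6 and 92.6 to 36.5 and 43.0 CPM (-1.02, adjusted p = 0.0341). Several more were looked at after their values were seen. The cytoskeletal linker Macf1, at 4181 and 5412 CPM in wild type, stood at 1969 and 2197 CPM in Dnmt1 CKO (-1.23, adjusted p = 0.0110). The secreted proteins Scube2 and Bmp3 were also called (-1.54, adjusted p = 0.0105, and -1.40, adjusted p = 0.0281). Leaving out replicate 2 of wild type ended the calls of Macf1 (-1.05, adjusted p = 0.0532), Scube2 (-1.32, adjusted p = 0.0532) and Bmp3 (-1.16, adjusted p = 0.13).

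Signals to neighbouring cells moved both ways. Of 34 tested members of a list of mesenchymal signals, 5 rose and 6 fell, and the median was -0.11. Of all genes tested 3.44% rose and 1.93% fell, and the lists of all members that follow are to be read against the same shares. These lists too were drawn up with earlier results of these data known. Insulin-like growth factor 1, from Igf1, rose from 53.03 and 42.3 CPM to 274 and 271 CPM (2.48, SE 0.207, adjusted p = 0.000171). The heparin-binding growth factor pleiotrophin, from Ptn, rose from 82.8 and 43.8 to 434 and 298 CPM (2.49, SE 0.321, adjusted p = 0.00264). Both calls held without any 1 library. The chemokine Cxcl12 rose from 25.3 and 27.4 to 60.1 and 51.8 CPM (1.05, adjusted p = 0.0152) but was not called without replicate 2 of wild type (1.09, adjusted p = 0.0519) or replicate 1 of Dnmt1 CKO (0.98, adjusted p = 0.0539). Wnt2, a signal to lung epithelium, fell from 231 and 229.8 to 126 and 139.8 CPM (-0.81, adjusted p = 0.0363), and that call was lost whichever library was left out (adjusted p = 0.0662 to 0.367). Fgf10, the growth factor of branching epithelium, stood at 123 and 204 against 94.6 and 106 CPM and was not called (-0.73, adjusted p = 0.140). It was called without replicate 1 of wild type (-1.03, adjusted p = 0.0313), with a replicate block (-0.69, adjusted p = 0.0192) and with no low-count filter (-0.76, adjusted p = 0.0104). Vegfa, which acts on endothelium, stood at 109.9 and 162 against 55.8 and 69.9 CPM (-1.13, adjusted p = 0.0266), a call lost without replicate 2 of wild type (-0.84, adjusted p = 0.11) or replicate 1 of Dnmt1 CKO (-0.94, adjusted p = 0.114). Wnt2, Fgf10 and Vegfa were chosen after their values were seen.

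Genes around C-type natriuretic peptide were called in both directions. Of 11 tested members of the natriuretic peptide and cGMP list, 1 rose and 4 fell. Besides Nppc and Prkg2 these included Npr3, the clearance receptor, which fell from 192 and 332 CPM to 74.2 and 99.3 CPM (-1.61, SE 0.279, adjusted p = 0.0110), and Prkg1. The phosphodiesterase gene Pde9a was the one that rose, from 3.85 and 3.38 to 13.4 and 8.31 CPM (1.48, adjusted p = 0.0366). Its call was lost without replicate 1 of wild type (1.58, adjusted p = 0.0755), replicate 2 of wild type (1.35, adjusted p = 0.172) or replicate 1 of Dnmt1 CKO (1.16, adjusted p = 0.231).

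Lipid, hormone and vitamin A lists gave 3 calls each, of 17, 20 and 14 genes tested, each a larger share than the 5.37% of all genes. Among 17 lipofibroblast genes, 1 rose and 2 fell. The lipoprotein receptor gene Vldlr fell from 358 and 408 CPM to 146 and 166 CPM (-1.32, adjusted p = 0.00528), and the lipase inhibitor Angptl4 rose from 25.7 and 33.1 CPM to 69.6 and 97.0 CPM (1.47, adjusted p = 0.00878). G0s2, an inhibitor of lipolysis that is abundant in these cells, fell from 1134 and 1127 CPM to 608 and 572 CPM (-0.97, adjusted p = 0.0217), and was not called without replicate 2 of wild type (-0.99, adjusted p = 0.0532), replicate 1 of Dnmt1 CKO (-0.97, adjusted p = 0.0841) or replicate 2 of Dnmt1 CKO (-0.95, adjusted p = 0.0571). Of 20 glucocorticoid response genes 1 rose and 2 fell. Hsd11b2, which inactivates glucocorticoid, stood at 1.39 and 1.79 against 8.17 and 5.97 CPM (1.91, adjusted p = 0.0220), whereas glutamine synthetase, from Glul, and the glucocorticoid receptor chaperone Fkbp5 fell (-1.21, adjusted p = 0.0233, and -1.22, adjusted p = 0.0435). Each of these 3 calls was lost without replicate 2 of wild type (adjusted p = 0.0957, 0.105 and 0.171) and without replicate 1 of Dnmt1 CKO (adjusted p = 0.089, 0.127 and 0.231), and those of Hsd11b2 and Fkbp5 also without replicate 1 of wild type (adjusted p = 0.0755 and 0.0587). In the retinoid pathway 3 of 14 genes rose and none fell. The plasma retinol carrier Rbp4 went from 30.2 and 28.3 CPM to 102 and 100.1 CPM (1.75, SE 0.195, adjusted p = 0.00110). Rdh10 and Lrat, which oxidise and store retinol, rose to 22.5 and 21.9 CPM (1.39, adjusted p = 0.00931) and to 9.98 and 18.3 CPM (1.69, adjusted p = 0.0275). Rdh10 lost its call without replicate 2 of wild type (adjusted p = 0.0536), and Lrat without replicate 1 (adjusted p = 0.0908) or 2 of wild type (adjusted p = 0.101) or replicate 2 of Dnmt1 CKO (adjusted p = 0.113).

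Genes of matrix proteins were called in both directions. Of 16 collagen genes outside the rule 2 rose and 2 fell, with a median of -0.52. Col25a1, a transmembrane collagen, fell from 181 and 253 CPM to 63.1 and 67.1 CPM (-1.76, SE 0.216, adjusted p = 0.00197). Col26a1 rose from 9.56 and 9.28 to 38.1 and 21.5 CPM (1.60, adjusted p = 0.0120), a call lost without replicate 2 of wild type (1.55, adjusted p = 0.0761). Col14a1 (-0.92) and Col16a1 (1.01) were called at adjusted p = 0.0228 and 0.0239. Col14a1 was not called without replicate 2 of wild type (adjusted p = 0.0751), replicate 1 of Dnmt1 CKO (adjusted p = 0.0949) or replicate 2 of Dnmt1 CKO (adjusted p = 0.113), and Col16a1 was not without replicate 1 of wild type (adjusted p = 0.0515), replicate 2 of wild type (adjusted p = 0.0982) or replicate 1 of Dnmt1 CKO (adjusted p = 0.192).

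Of 10 small proteoglycans, which bind and space collagen fibrils, 3 rose and none fell. Lumican (Lum) went from 22.7 and 15.2 CPM to 130.0 and 91.0 CPM (2.50, SE 0.270, adjusted p = 0.000989). Decorin (Dcn) went from 194 and 185 CPM to 749.7 and 572 CPM (1.77, SE 0.209, adjusted p = 0.00157). Asporin (Aspn) went from 93.3 and 92.0 CPM to 299 and 309 CPM (1.69, SE 0.185, adjusted p = 0.00104). All 3 calls held without any 1 library. Dcn is also on the list of 12 adventitial markers, which summed to 940.2, 1041, 1214 and 1126 CPM, and Aspn on that of 12 alveolar myofibroblast markers, at 430.2, 511.6, 408.8 and 459.6 CPM. The myofibroblast list also holds Hhip, which fell from 285 and 387 to 62.6 and 85.4 CPM, so its sum hides opposite moves of Aspn and Hhip. Adventitial markers moved both ways in value: Mfap5 (20.8 and 13.7 against 37.2 and 46.9 CPM), Penk (13.4 and 18.7 against 25.9 and 41.3 CPM) and Cd248 (10.6 and 6.86 against 39.7 and 21.95 CPM) were higher in Dnmt1 CKO members, and Col14a1 and Clec3b (284 and 359 against 106 and 209 CPM) lower. Their part in the proteoglycan values was not tested. Of 19 elastic fibre genes 3 rose: Fbn2, a fibrillin of fetal tissue, from 55.5 and 46.7 to 215 and 159 CPM (1.84, adjusted p = 0.00160), Fbln1, a fibulin, from 121 and 87.5 to 334 and 276 CPM (1.51, adjusted p = 0.00530), and the crosslinking enzyme gene Loxl2 (1.00, adjusted p = 0.0223). Loxl2 was not called without replicate 2 of wild type (0.90, adjusted p = 0.0887) or replicate 1 of Dnmt1 CKO (0.92, adjusted p = 0.101). Elastin itself (Eln), looked at after its values were seen, stood at 7856 and 5775 against 3183 and 4903 CPM and was not called (-0.78, adjusted p = 0.150). It was called without replicate 2 of Dnmt1 CKO (-1.16, adjusted p = 0.00164), by DESeq2 (-0.77, adjusted p = 0.0400), with sex as a covariate (-0.80, adjusted p = 0.0319) and with no low-count filter (-0.81, adjusted p = 0.00157).

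Germline genes made up the list with the most calls. Of 46 members 32 passed the low-count filter and were tested. Of these 25 rose and none fell, with a median of 4.02, or 4.58 with 14 genes at their bound. Those 14 had no wild type UMI, so they entered the test only through the mutant libraries and could not fall. The next set, 21 placental and cancer-testis genes, had 9 of 12 tested members higher and none lower. The same limit held for 4 of the 12, which were at their bound. Psg23, a pregnancy-specific glycoprotein, stood at 0.154 and 0 CPM against 24.0 and 26.9 CPM, a ratio of 407 (counting interval 72.3 to 16140), and Dcaf8l at 0 and 0 against 23.6 and 26.2 CPM. Both lists were chosen with their direction in these data known, so their counts are a description.

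Imprinted genes, which are expressed from 1 parental copy and marked by methylation, gave 8 higher and 1 lower among 33 tested. From the Dlk1 and Meg3 region of chromosome 12, Meg3 rose from 554 and 557 CPM to 2032 and 1534 CPM (1.65, SE 0.213, adjusted p = 0.00265). Rian rose from 95.1 and 85.0 to 364 and 245 CPM (1.72, adjusted p = 0.00286), and Mirg from 7.25 and 6.86 to 29.0 and 31.5 CPM (2.03, adjusted p = 0.00110). The protein-coding Dlk1 rose too, from 118 and 112 to 392 and 264 CPM (1.48, adjusted p = 0.00573). So both the RNAs of the maternal copy and the paternally expressed Dlk1 were higher. H19 and Igf2r, looked at after their values were seen, went in opposite directions. H19 stood at 334 and 219.8 against 939.8 and 528 CPM (1.37, adjusted p = 0.0343), and Igf2r at 371 and 447 against 192 and 201 CPM (-1.08, adjusted p = 0.0131). Neither was called without replicate 2 of wild type (1.08, adjusted p = 0.168, and -0.96, adjusted p = 0.0528) or without replicate 1 of Dnmt1 CKO (0.94, adjusted p = 0.0712, and -1.01, adjusted p = 0.0711).

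Acute-phase and chemokine genes rose more often than genes at large. Of 18 such genes tested, 9 rose and none fell (against 3.44% and 1.93% of all genes), with a median of 1.21. The list was drawn up with earlier results of these data known, so these counts are a description. Besides Saa3, the monocyte attractant Ccl2 went from 9.10 and 11.3 CPM to 60.8 and 69.5 CPM (2.61, SE 0.219, adjusted p = 0.000171), and Cxcl10 from 0.617 and 1.79 to 13.2 and 8.74 CPM (2.81, adjusted p = 0.00726). The neutrophil attractant Cxcl2 went from 3.08 and 2.85 to 31.3 and 12.4 CPM (2.72, adjusted p = 0.00618), was not called without replicate 2 of wild type (2.62, adjusted p = 0.058), and differed by -0.31 on the log2 scale (adjusted p = 0.88) when cells were chosen at 3000 UMIs. With the Scrublet calls removed, 15, 6, 1 and 3 of the members, the Cxcl2 difference was 1.27 (adjusted p = 0.204), and with at least 5 of 8 markers it was 1.28 (adjusted p = 0.201). Much of the Cxcl2 value thus came from a few cells. Summed immune markers were 44.6 and 31.4 CPM in wild type against 73.7 and 87.2 CPM in Dnmt1 CKO, and Ptprc was at 0 by the rule. Whether immune RNA had a part in the chemokine values was not tested. Interferon genes gave 1 call of 19, a share close to the 5.37% of all genes. It was Isg15 (1.75, adjusted p = 0.0148), and its call was lost without replicate 2 of wild type (1.72).

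Stress and cell cycle genes came next. Of 23 tested p53 targets 4 rose and none fell. Gdf15, a stress cytokine, stood at 0.154 and 0.211 against 4.76 and 7.03 CPM, a ratio of 31.6 from 3 wild type UMIs (counting interval 10.2 to 157.9), and Bbc3, which promotes cell death, at 5.09 and 6.22 against 17.5 and 23.2 CPM (1.76, adjusted p = 0.00672). Cdkn1a, which halts the cell cycle, stood at 23.4 and 26.4 against 41.1 and 82.0 CPM (1.28, adjusted p = 0.0488), and Trp53 at 58.1 and 54.0 against 98.2 and 107 CPM (0.84, adjusted p = 0.0366). The last 2 calls did not hold when libraries were left out. Trp53 was lost whichever library was left out (adjusted p = 0.052 to 0.16), and Cdkn1a without replicate 1 of wild type (adjusted p = 0.13), replicate 2 of wild type (adjusted p = 0.161) or replicate 2 of Dnmt1 CKO (adjusted p = 0.258). Of 16 amino acid stress genes 3 rose and 2 fell. The mitochondrial folate enzyme gene Mthfd2 rose from 4.32 and 3.17 to 16.8 and 16.0 CPM (2.03, adjusted p = 0.00460). Asns, the asparagine synthetase gene, rose (2.70, adjusted p = 0.0115) but not without replicate 2 of wild type (2.26, adjusted p = 0.104), and the chromatin protein gene Nupr1 fell from 255 and 194 to 62.1 and 111 CPM (-1.39, adjusted p = 0.0267), a call lost without replicate 1 of wild type (-1.16, adjusted p = 0.0873) or replicate 1 of Dnmt1 CKO (-1.0, adjusted p = 0.0701).

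Of 23 S phase genes 5 rose and none fell, and of 26 G2 and M phase genes 2 rose and none fell. The medians, 0.78 and 1.16, lay above that of all genes. Mcm5, Mcm3 and Mcm6, subunits of the replicative helicase, had log2 fold changes of 1.80, 1.26 and 1.33 (adjusted p = 0.0205, 0.0308 and 0.0383), and replicate 1 of Dnmt1 CKO was the highest library for each, as in Mcm5 at 4.78, 4.11, 22.5 and 10.9 CPM. None of the 3 was called without replicate 1 of wild type (adjusted p = 0.0578, 0.0588 and 0.104), replicate 2 of wild type (adjusted p = 0.124, 0.156 and 0.15) or replicate 1 of Dnmt1 CKO (adjusted p = 0.0896, 0.153 and 0.285). Hells, a chromatin remodeller that serves DNA methylation, stood at 15.4 and 13.5 against 48.8 and 24.5 CPM (1.29, adjusted p = 0.0400) and was lost in the same 3 fits (adjusted p = 0.0832, 0.19 and 0.269). Top2a, a topoisomerase of dividing cells, stood at 36.1 and 19.5 against 94.6 and 62.2 CPM (1.46, adjusted p = 0.0299), and Cdc20, which triggers anaphase, at 8.94 and 2.32 against 26.8 and 19.4 CPM (2.00, adjusted p = 0.0477). Both were lost without replicate 2 of wild type (1.06, adjusted p = 0.106, and 1.28, adjusted p = 0.0774). Cells with Mki67 or Top2a made up 4.97%, 2.49%, 8.27% and 7.11% of members at 3000 UMIs (7.61%, 6.13%, 16.6% and 10.7% without thinning).

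Of 14 contractile smooth muscle genes 2 rose and 1 fell, and of 31 Hox and lung mesenchyme transcription factors 2 rose and 1 fell, beside 3.44% and 1.93% of all genes. The smooth muscle myosin Myh11 rose from 13.1 and 12.55 to 41.5 and 30.5 CPM (1.44, SE 0.224, adjusted p = 0.00685) and the intermediate filament gene Des from 32.7 and 23.5 to 69.2 and 71.2 CPM (1.29, adjusted p = 0.0120). Des was not called without replicate 2 of wild type (1.05, adjusted p = 0.0512). The gene that fell was Hhip, described above, a hedgehog inhibitor and not a contractile protein. The 8 smooth muscle markers summed to 1371, 1130, 1941 and 1580 CPM. Among 19 Tgf-beta and Wnt target genes, periostin (Postn) was the one called, from 20.2 and 10.1 to 52.2 and 56.9 CPM (1.82, adjusted p = 0.0101). That share was close to the 5.37% of all genes. Tbx4, whose regulatory sequence drives the transgene, stood at 90.5 and 125 against 54.0 and 59.9 CPM (-0.94, adjusted p = 0.0377), a call lost without replicate 2 of wild type (-0.71, adjusted p = 0.141) or replicate 1 of Dnmt1 CKO (-0.83, adjusted p = 0.217). The 2 factors that rose, named after their values were seen, rested on few UMIs. Hoxc4, a homeobox gene, had 2 and 3 UMIs in wild type against 18 and 10 in Dnmt1 CKO (2.41, adjusted p = 0.0287), a call lost without replicate 1 (adjusted p = 0.128) or 2 of wild type (adjusted p = 0.226) or replicate 1 of Dnmt1 CKO (adjusted p = 0.419). Twist1, a factor of mesenchyme, had 0 and 3 UMIs against 9 and 21, a ratio of 17.5 (counting interval 5.46 to 89.8, adjusted p = 0.0336), lost without replicate 1 (adjusted p = 0.126) or 2 of wild type (adjusted p = 0.107) and not tested without replicate 2 of Dnmt1 CKO.

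The mutant members were then split by their germ cell UMIs and each class was compared with the same wild type members, so the comparisons share their controls and are set side by side. The 9 genes that made the split were left out of these fits. Germline-negative cells (92 and 304) differed from wild type in 17 of 12042 genes (0.141%), 9 higher (0.0747%) and 8 lower (0.0664%), with 966 at an unadjusted p under 0.05. Germline-positive cells (398 and 362) differed in 1328 of 12687 (10.5%), 704 higher (5.55%) and 624 lower (4.92%). The germline-negative sums were smaller, at 744619 and 1930820 UMIs against 3514302 and 2539724 UMIs in germline-positive ones. A low number of calls is therefore no measure of likeness to wild type, and the part of depth in these counts was not tested. The number called among germline-negative cells ranged from 43 to 246 when a library was left out, above the 17 called with all of them. The count for germline-positive cells ranged from 780 without replicate 1 of Dnmt1 CKO to 2077 without replicate 1 of wild type.

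Dnmt1 differed between the classes. Germline-negative members held it at 52.4 and 26.4 CPM (39 and 51 UMIs), at or above the wild type values of 27.75 and 25.95, and germline-positive members at 7.11 and 6.69 CPM (25 and 17 UMIs). The log2 fold change from wild type was 0.48 (adjusted p = 0.777) in the former and -1.94 (SE 0.251, adjusted p = 0.00149) in the latter. The 8 matrix markers summed to 2789 and 3907 CPM in germline-negative members and to 1520 and 1969 CPM in germline-positive ones, both under the wild type sums. These marker sums are a description, since the same 8 genes chose the cells. Restricted to cells with at least 6 markers, the germline-positive difference in Dnmt1 was -1.02 (adjusted p = 0.0951).

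Some genes moved in both classes. Nppc stood at 1.34 and 4.14 CPM in germline-negative members (-3.06, adjusted p = 0.0149) and 0.569 and 1.18 CPM in germline-positive ones (-4.77, adjusted p = 6.442e-05). Igf1 stood at 228 and 197 CPM (2.17, adjusted p = 0.00411) and at 284 and 332 CPM (2.64, adjusted p = 0.000124), against 53.03 and 42.3 CPM in wild type. Ccl2 stood at 51.0 and 38.3 CPM (2.08, adjusted p = 0.0149) and at 57.2 and 97.2 CPM (2.83, adjusted p = 0.000414). Aspn, at 93.3 and 92.0 CPM in wild type, stood at 309 and 261 CPM (1.64, adjusted p = 0.0149) and 291 and 339 CPM (1.72, adjusted p = 0.00065). Hhip was lower in each, at 73.9 and 122 CPM (-1.70, adjusted p = 0.03224) and at 59.2 and 54.7 CPM (-2.59, adjusted p = 0.0001394). Col25a1 was too (-1.48, adjusted p = 0.0322, and -1.89, adjusted p = 0.00078).

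Other calls of the germline-negative cells were the imprinted neuronatin gene Nnat, at 52.9 and 20.04 CPM in wild type against 279 and 174 CPM (2.63, adjusted p = 0.02495), and the surface antigen Cd34, at 16.0 and 12.8 against 56.4 and 43.0 CPM (1.76, adjusted p = 0.03224). Filip1l rose from 8.17 and 9.39 to 29.6 and 42.5 CPM (2.06, adjusted p = 0.0177). Mapt (-2.08, adjusted p = 0.0177) and Trf (-2.36, adjusted p = 0.03224) fell. The Wnt agonist Rspo1 fell from 36.1 and 38.0 to 6.71 and 10.4 CPM (-1.93, adjusted p = 0.03499), and G0s2 to 416 and 451 CPM (-1.35, adjusted p = 0.03876). Without replicate 1 of wild type the calls of Rspo1 (-1.95, adjusted p = 0.0516), G0s2 (-1.34, adjusted p = 0.0747), Saa3 (3.46 with all libraries, 3.31 and adjusted p = 0.116 without it) and Hmcn1 (1.49 and 1.40, adjusted p = 0.121) were lost. Saa3 in these cells differed between the libraries, at 432 and 83.9 CPM. In replicate 1 of Dnmt1 CKO the share of these cells with a Saa3 UMI (10.9%) was that of epithelial cells (10.8%). It lay above the shares of immune (3.56%) and endothelial cells (1.45%). In replicate 2 of Dnmt1 CKO it was 5.08%, against 8.31%, 4.43% and 6.19%. Whether the 3.46 is expression in these cells or RNA from other cells was not tested. The basement membrane gene Hmcn1 stood at 224 and 129 CPM.

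In germline-positive cells the rises named by the rule were led by genes at or near 0 in wild type. Trap1a reached 67.4 and 92.1 CPM (ratio to wild type 1242, counting interval 222 to 49170), Serpinb1c was at least 264-fold and Dcaf8l at least 193-fold higher, and the ratios of Psg23 and Xlr3c were 599 (106 to 23750) and 593 (105 to 23540). Clvs1 reached 91.1 and 144 CPM (6.87) and Rhox5 256 and 201 CPM (5.24). The calcium channel gene Trpc6 (5.76), the antiviral Trim5 (5.19), the synaptonemal complex gene Sycp1 (5.12) and the zinc finger gene Zfp575 (4.67) followed, each with wild type values under 2.5 CPM. Saa3 stood at 941 and 1587 CPM (5.75, adjusted p = 1.955e-05). Below wild type the leaders after Nppc were Cpm, a membrane carboxypeptidase, from 23.4 and 70.6 to 1.99 and 3.94 CPM (-3.93, adjusted p = 0.002789), Abcd2 (-3.48), Dtna (-3.29), the imprinted zinc finger gene Zim1 (-3.08), the sulfotransferase Sult5a1 (-2.94), Cldn10 (-2.76), the collagen processing gene Pcolce2 (-2.74), C7 (-2.72), Mettl21e (-2.68) and the cadherin Fat3 (-2.62).

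The elastic fibre list gave no call of 17 in germline-negative members (median 0.22) and 4 rises and 3 falls of 19 in germline-positive ones (0.16), and between the classes 4 of 17 were higher and 4 lower. Single genes are given next as values, all but Meg3 looked at after their values were seen. Eln stood at 4969 and 6949 CPM in germline-negative members (-0.16, adjusted p = 0.936) and 2769 and 3162 CPM in germline-positive ones (-1.24, adjusted p = 0.00683), against 7856 and 5775 CPM in wild type. Mfap4, a microfibril protein, had 12250 and 11210 CPM in wild type, 7863 and 10820 CPM in germline-negative (-0.29, adjusted p = 0.835) and 4540 and 5532 CPM in germline-positive members (-1.26, adjusted p = 0.00383). Meg3 stood at 944 and 827 CPM (0.70, adjusted p = 0.326) against 2284 and 2080 CPM (1.93, adjusted p = 0.000337). The complement gene C3 stood at 6.71 and 8.29 CPM (-1.41, adjusted p = 0.335) against 83.4 and 191 CPM (2.59, adjusted p = 0.00613).

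By list, the matrix genes outside the rule gave 1 fall of 25 in germline-negative cells (median -0.44) and 14 of 25 in germline-positive ones (-1.04). Acute-phase and chemokine genes gave 2 rises of 15 (0.59) and 10 rises and 1 fall of 18 (1.5). Imprinted genes gave 1 rise of 33 (0.16) and 11 rises and 5 falls of 32 (0.44). For p53 targets there was no call of 22 (0.16) against 5 rises of 24 (0.39). The small proteoglycans had medians of 0.59 and 0.28, with 1 and 3 rises of 10. G2 and M phase genes had medians of 1.51 and 1.08, with no call in 26 and 3 rises. Medians over all genes tested were -0.008 and 0.003. These calls in both classes are to be read against 0.141% and 10.5% of all genes.

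**Figure D4:**
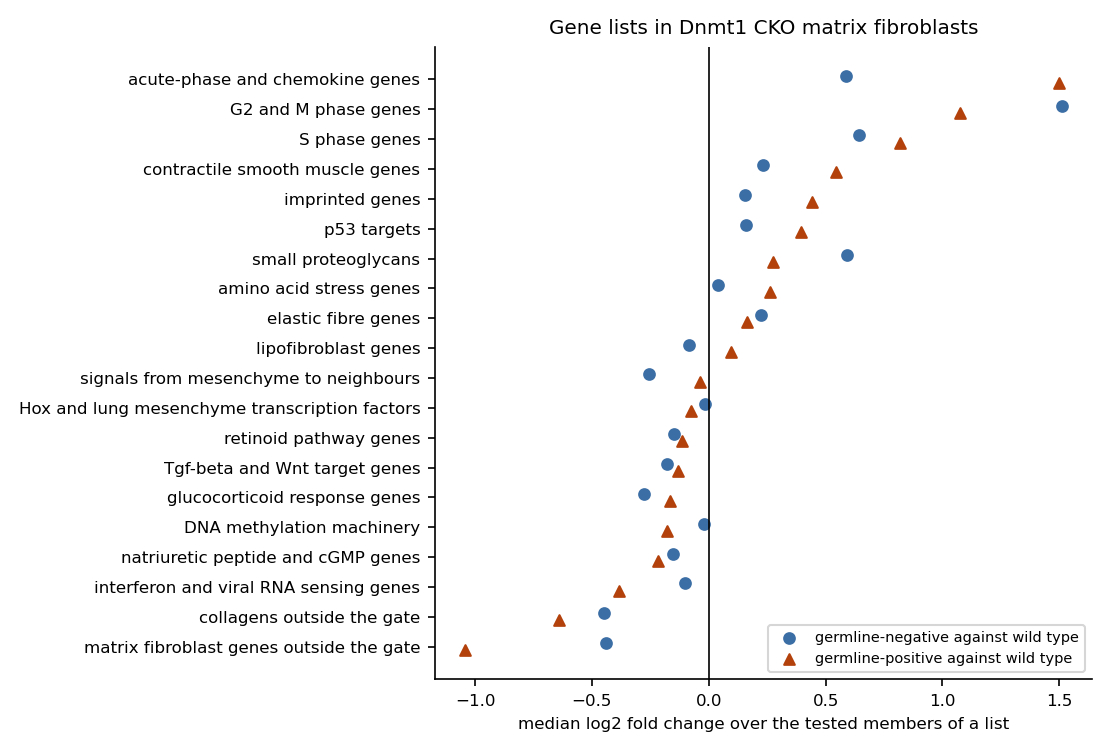
Median log2 fold change from wild type for each gene list, germline-negative cells as circles and germline-positive cells as triangles, with the germline and placental lists left out. Matrix fibroblast genes outside the rule sit lowest in germline-positive cells at -1.04, and G2 and M phase genes are the highest in germline-negative cells at 1.51.

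Within the mutant libraries the classes were compared directly, with the library as a block. Of 10720 genes 1681 were called (15.7%), 844 higher (7.87%) and 837 lower (7.81%) in germline-positive cells. The fit had 1 residual degree of freedom and took its spread from all genes, so a gene's own spread was not used, and without the block 242 genes were called. Clvs1 stood at 1.34 and 1.55 CPM in germline-negative and 91.1 and 144 CPM in germline-positive members (5.71). Psg23, Sohlh2, Mov10l1 and Dpep3, the last 3 also genes of germ cells, had no UMI in germline-negative members and were at least 33.4-fold, 30.05-fold, 24.45-fold and 20.3-fold higher. In the other direction Zim1 stood at 39.0 and 46.1 CPM in germline-negative members, close to the wild type values of 37.3 and 45.5, and at 5.69 and 3.54 CPM in germline-positive ones (-3.02). The chemokine gene Cxcl14 (67.2 and 116.5 against 14.2 and 14.6 CPM, -2.64), Pcolce2 (-2.57), Dtna (-2.50) and Sult5a1 (-2.43) were likewise lower in germline-positive cells. Dnmt1 differed by -2.38 (SE 0.284).

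Beside the matrix fibroblasts the same libraries held 246, 204, 156 and 160 alveolar myofibroblasts and 27, 24, 29 and 27 adventitial fibroblasts, picked by the other markers of the rule. Because the marker lists separate these cells, the wild type differences are given as a description and nothing is read from the counts called, 3767 of 11358 genes (33.2%) against myofibroblasts and 1447 (12.7%) against adventitial fibroblasts. Fgf10 had no UMI in wild type myofibroblasts and stood at 123 and 204 CPM in matrix fibroblasts, at least 146-fold higher, and the methyltransferase Inmt was at least 81.5-fold higher. G0s2 stood at 16.7 and 7.32 against 1134 and 1127 CPM, the integrin Itga8 at 3.34 and 1.46 against 200.2 and 360.3 CPM, and the homeobox gene Meox2 at 0.834 and 2.197 against 169 and 215 CPM. Smim41, Clec3b and Scube2 had log2 differences of 7.29, 6.67 and 6.34. On the myofibroblast side were the adhesion genes Cdh4 (212 and 138 against 0.925 and 0.105 CPM) and Nrxn3, the Wnt coreceptor gene Lgr6 (156 and 98.1 against 0.308 and 0 CPM), the stress hormone gene Crh (148 and 98.8 against 0.463 and 0 CPM) and Ddit4l (63.4 and 76.2 against 0.308 and 0 CPM). Lgr6, Crh and Ddit4l had 2, 3 and 2 UMIs in all wild type matrix fibroblasts. Col15a1, Map1b and Rgs5 were lower in matrix fibroblasts too, by log2 differences of -6.48, -6.46 and -6.27. The myofibroblast sums also held markers of other cells, unevenly by library. From wild type replicate 1 to Dnmt1 CKO replicate 2, the mesothelial Msln ran 51.7, 587, 519 and 874 CPM. Upk3b ran 66.7, 364, 345 and 404 CPM. Rgs5, which also marks pericytes, ran 304, 319, 217 and 364.5 CPM. What part mesothelial, pericyte or smooth muscle RNA had in these differences, or in the interaction below, was not tested.

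Against adventitial fibroblasts, which held 24 and 27 wild type cells, Col25a1 (181 and 253 CPM), Mapt, Fgfr4 and Mettl21e were found in matrix fibroblasts and had no UMI in the others, at least 34.5-fold, 15.4-fold, 12.6-fold and 12.3-fold higher. Frrs1l, Asz1, Adgrg6 and Cass4 also had none there. Postn (826 and 1934 against 20.2 and 10.1 CPM), Serpinf1, Creb5, the transcription factor gene Ebf1 (206 and 266 against 6.01 and 3.38 CPM), Fbln2, Fndc1, Igfbp2 and Ptn (1928 and 2159 against 82.8 and 43.8 CPM) were lower in matrix fibroblasts, by log2 differences of -4.98 to -6.48.

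Whether the mutant differed from wild type to another extent in matrix fibroblasts than in myofibroblasts was tested as an interaction, which the rule did not use. It was passed by 170 of 11358 genes (1.5%). Cntfr, a cytokine receptor subunit, stood at 0.771 and 0.844 CPM in wild type against 12.2 and 10.0 CPM in mutant matrix fibroblasts, and at 79.3 and 86.4 against 39.8 and 41.7 CPM in myofibroblasts. The log2 fold change was 3.94 higher in matrix fibroblasts (SE 0.330, adjusted p = 2.725e-05), and that of the transcription factor gene Creb5 was 3.67 higher (SE 0.351, adjusted p = 9.173e-05). These 2 were called whichever library was left out. Igfbp3 (3.56), Ank2 (3.54) and Map1b (2.90) had the same sign, and Asz1, Fgf10, Itga8 (-3.25), Acss3 (-3.11) and Nuak1 (-3.06) the opposite one. None of those 8 was called without replicate 1 of Dnmt1 CKO (adjusted p = 0.053 to 0.657), and 18 genes were called in all without it. Fgf10, for example, had 0 and 0 CPM in wild type against 5.36 and 5.44 CPM in mutant myofibroblasts beside 123, 204, 94.6 and 106 CPM in matrix fibroblasts. Its fitted difference, like that of Asz1, rests on a wild type group at or near 0 and depends on the prior count, so it is given as a direction with no size. Dnmt1 did not pass (1.19, adjusted p = 0.2102).

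**Figure D5:**
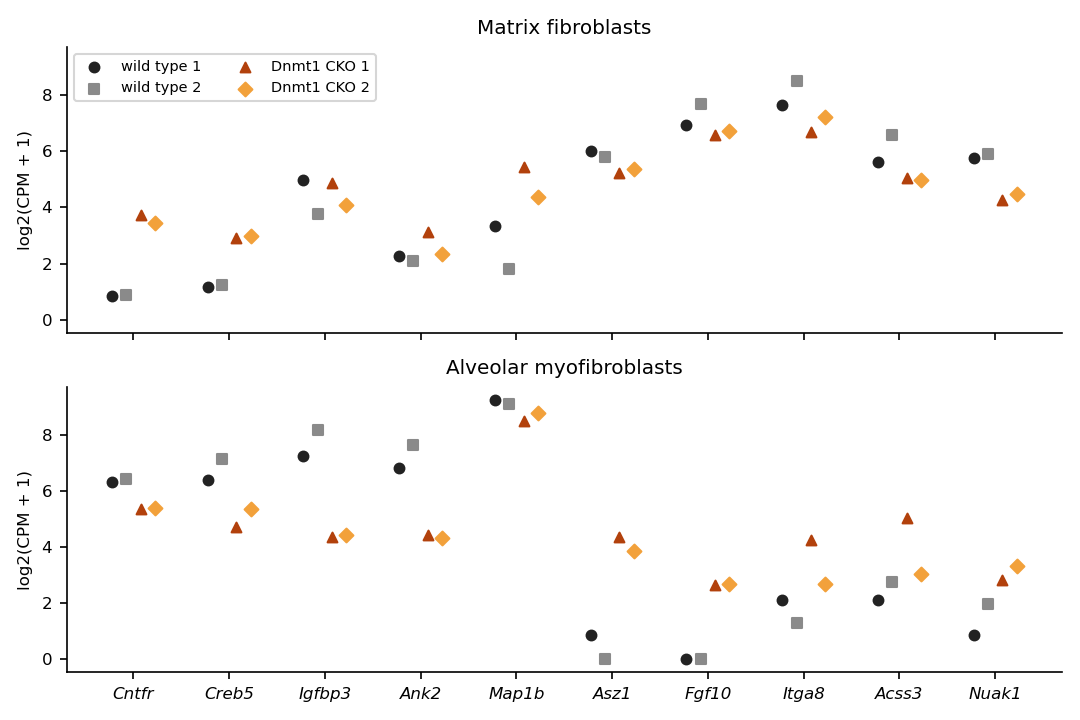
Levels of the 10 genes with the largest interactions, as log2(CPM + 1), 1 point per library, matrix fibroblasts in 1 panel and alveolar myofibroblasts in the other. Cntfr is higher in both mutant libraries of matrix fibroblasts and lower in both of myofibroblasts.

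The interaction with adventitial fibroblasts was passed by 6 genes (0.0528%). Hhip fell in matrix fibroblasts, as above, and stood at 42.2 and 52.4 against 55.3 and 61.5 CPM in adventitial cells (-2.47, adjusted p = 0.008967). Meg3, which rose in matrix fibroblasts, stood at 6783 and 5901 against 5594 and 8109 CPM there (1.62, adjusted p = 0.02348), and Fbn2 at 516 and 403 against 582 and 533 CPM (1.59, adjusted p = 0.008967). Fhl2, a LIM domain gene, went from 5.24 and 2.64 to 25.6 and 19.6 CPM in matrix fibroblasts and from 84.4 and 52.4 to 64.0 and 25.6 CPM in adventitial ones (2.91, adjusted p = 0.008967). Hmcn1 (2.00) and Timp3 (1.59) were the other 2. Without replicate 1 of Dnmt1 CKO none of the 6 was called by edgeR, where 662 genes had an unadjusted p under 0.05.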

How the data were processed

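Single-cell RNA was measured with droplet 3′ libraries (10X Chromium, v3 chemistry) from 4 enzymatically digested embryonic mouse lungs after red cell lysis, per the labels. The authors deposited UMI counts for each of 55471 gene identifiers and each barcode. Per the submitters' processing notes, the authors used bcl2fastq 2.20, Cell Ranger 3.1.0 and Seurat with GRCm38.p6, and how each tool was set is not given in the sources used here. Genes were placed with the GENCODE vM21 annotation of that build.

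Members were found by the rule given above, which used measured values. Members and gene lists were chosen with earlier results of these data known. UMIs were summed per library over the members, over germline-negative (0 UMIs of the 9 genes) and germline-positive (at least 2) mutant members, and over alveolar myofibroblasts (at least 4 of their 8 markers) and adventitial fibroblasts (at least 3 of 5), in Python 3.11.15 with scanpy 1.11.5, numpy 2.4.6, pandas 2.3.3 and scipy 1.17.1. CPM is UMIs per 1000000 UMIs of the summed cells. Groups of 2 libraries were compared with edgeR 4.0.16 and its quasi-likelihood test (limma 3.58.1, R 4.3.3) after filterByExpr and TMM scaling, with a prior count of 2. Dividing the log2 fold change by the root of F gave the SE. The 27 genes of the rule were kept out of the tests, and so were the 9 split genes where cells were split by them. P-values were adjusted by Benjamini-Hochberg over all genes tested, and an adjusted p under 0.05 is a call. With 2 libraries against 2 the smallest exact permutation p is 0.333, and no such test is given. Interactions and cell-group differences were fitted with the library as a block. The fit was tested on simulated data.

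Named genes are Dnmt1, the genes of the rule and, among those called with a mean log2 CPM of 4 or more, a gene name, groups that do not overlap and no place among Xist, Tsix or Y-linked genes, the largest changes: 12 each way against wild type, 8 each way between wild type cell groups, and 5 each way for interactions and germline classes. Each list adds up to 4 called members with the smallest adjusted p. Genes outside this are said to be chosen after their values were seen. Lists are given by counts and medians. A fold against a group with no UMI is a bound against 3 UMIs over that group, and with 1 to 3 UMIs it is a ratio with an exact 95% counting interval. Intervals and floors cover counting error only. Shares of cells were compared after thinning each cell to 3000 UMIs, without shallower cells. Promoter windows are from RefSeq. Figures were drawn with matplotlib 3.10.9.

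The alternatives were RLE or library-total scaling, DESeq2 1.42.0, sex as a covariate, no sex-linked genes, no low-count filter, a replicate block, leaving out each library, other marker limits, thinned cells, Scrublet calls removed, stricter barcode filters (1000 genes, 10% mitochondrial) and equal cells per library. Chosen after seeing the data were a limit of 6 markers and of 5 germ cell UMIs and a fit without the library block.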

Additional observations from a re-analysis of the deposited data

Results flagged for a closer look

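Here the mutant's difference from wild type was tested for being unequal between matrix fibroblasts and another fibroblast group. Each value is a difference of log2 fold changes, matrix fibroblasts minus the other group, from edgeR's interaction term.

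Against alveolar myofibroblasts, whose sums also held the mesothelial markers given above, 170 genes passed. In 5 of the genes named by the rule the value was above 0: Cntfr 3.94, Creb5 3.67, Igfbp3 3.56, Ank2 3.54 and Map1b 2.90. Igfbp3, which binds insulin-like growth factors, stood at 30.2, 12.6, 28.4 and 16.2 CPM in the matrix fibroblasts of the 4 libraries, in the order wild type replicates 1 and 2 and Dnmt1 CKO replicates 1 and 2, and at 152, 293, 19.9 and 20.9 CPM in myofibroblasts. The microtubule gene Map1b stood at 9.10, 2.53, 43.1 and 19.6 CPM in the former and at 614, 549, 367 and 443 CPM in the latter. In the other 5 the value was below 0: Asz1 -4.47, Fgf10 -3.65, Itga8 -3.25, Acss3 -3.11 and Nuak1 -3.06. Asz1, a germ cell gene, stood at 63.7, 54.9, 36.3 and 40.5 CPM in matrix fibroblasts and at 0.834, 0, 19.9 and 13.6 CPM in myofibroblasts. The values of Asz1 and Fgf10 rest on wild type myofibroblasts at or near 0 CPM, so they depend on the prior count of the fit and are neither sizes nor bounds. Asz1 lies beside Wnt2, and reads shared between neighbours were not examined. Without Dnmt1 CKO replicate 1 the calls of Igfbp3 (3.14, adjusted p = 0.229), Ank2 (3.18, adjusted p = 0.0635), Map1b (2.21, adjusted p = 0.0904), Asz1 (-4.11, adjusted p = 0.053), Fgf10 (-3.61, adjusted p = 0.11), Itga8 (-1.86, adjusted p = 0.657), Acss3 (-1.78, adjusted p = 0.645) and Nuak1 (-3.19, adjusted p = 0.116) were lost. Itga8 was lost without wild type replicate 2 as well (-2.35, adjusted p = 0.0913), and Nuak1 without Dnmt1 CKO replicate 2 (-2.97, adjusted p = 0.0896).

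Against adventitial fibroblasts 6 genes passed: Fhl2 2.91, Hmcn1 2.00, Meg3 1.62, Timp3 1.59, Fbn2 1.59 and Hhip -2.47. Timp3, an inhibitor of matrix proteases, stood at 265, 234, 358 and 356 CPM in matrix fibroblasts and 413, 455, 183 and 241 CPM in adventitial ones. The adventitial groups held 24 to 29 cells. Without Dnmt1 CKO replicate 1 the values were 3.57, 1.85, 1.15, 1.40, 1.45 and -2.29, and the adjusted p lay between 0.188 and 0.502, so none of the 6 was called. Timp3 was lost without wild type replicate 2 too (1.37, adjusted p = 0.0569).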

How the results depend on the processing

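With 2 libraries a side, counts of called genes moved with single libraries, and depth limits low genes and the 24 to 29 adventitial cells per library. A fit without a library leaves an arm with 1 sample, which is assumed to vary like the other groups. Against wild type, 694 genes were called among all members. The count was 1673 with no low-count filter, 407 with sex as a covariate, 1068 with at least 3 of 8 markers, 393 at 3000 UMIs, and 275 (without wild type replicate 2) to 1152 (without Dnmt1 CKO replicate 2) with a library left out. It stayed between 578 and 901 under the other alternatives. With the replicate block it was 1639. The labels tie equal replicate numbers to no shared litter, batch or day, and 2 pairs are too few to take pairs from the data, so the samples were not treated as paired. Over 4472 genes the difference between replicates 1 and 2 in wild type correlated with that in Dnmt1 CKO at Pearson's r of 0.37 and Spearman's rho of 0.31. Erythroid RNA was also higher in replicate 1 of both genotypes, and what gave the correlation was not tested. Among germline-negative cells 17 genes were called, 272 with no filter, 110 with at least 6 markers, and 43 to 246 with a library left out. Among germline-positive cells 1328 were called, 2276 with no filter, 758 with at least 6 markers, and 780 to 2077 with a library left out. Between the classes 1681 were called, and 242 with no library block. The interaction with myofibroblasts gave 170, 411 with no filter, and 18 to 284 with a library left out. That with adventitial fibroblasts gave 6, 126 with no filter, and 0 (without Dnmt1 CKO replicate 1) to 53. The wild type comparison with adventitial fibroblasts gave 1447, and 788 to 1392 with a library left out. That with myofibroblasts gave 3767, and 2582 to 3568. The share of matrix fibroblasts differed by -34.35 percentage points, by -48.43 at 3000 UMIs, by -20.89 and -44.12 at 3 and 5 of 8 markers, and by -25.35 at 3 of 6 markers. Of the fits of single named genes, 2794 kept their direction and their side of the threshold, 200 lost a call and 43 gained one. The 1 that reversed was Cxcl2 at 3000 UMIs (-0.31). The cause of these changes was not tested.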

Other observations

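Xist, the RNA that coats the inactive X chromosome of female cells, was found in the male mutant library. It was looked at after its values were seen and is given as a description. Dnmt1 CKO replicate 1 was male by Y-linked transcripts (229 CPM in its matrix fibroblasts), yet its matrix fibroblasts held Xist at 1650 CPM, where the male wild type replicate 2 held 0 CPM and the female wild type replicate 1 held 1637 CPM. UMIs of Xist and of Y-linked genes were found together in 245 of the 511 members (47.9%, exact 95% interval 43.5% to 52.4%). In germline-positive members this was 237 of 398 (59.5%) and in germline-negative members 2 of 92 (2.17%). Epithelial, endothelial and immune cells of that library had both in 8.19%, 9.56% and 6.93%, at medians of 10298, 6471 and 9314 UMIs, against 7752 UMIs in germline-negative and 8033.5 UMIs in germline-positive members. Germline-positive members stood above these cells and germline-negative ones below them. The Xist level was 99.4 CPM in germline-negative and 2008 CPM in germline-positive members of this library. In the female Dnmt1 CKO replicate 2 it was 1729 and 4272.5 CPM. A mix of a male and a female lung in Dnmt1 CKO replicate 1 was not tested.

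Saa3 and Dazl were counted in both fibroblast groups. In thinned cells of Dnmt1 CKO replicate 1, Dazl was found in 57.1% of alveolar myofibroblasts and in 46.9% of matrix fibroblasts, while Saa3 was found in 0.649% and 23.8%. In Dnmt1 CKO replicate 2 the shares were 43.3% and 38.0% for Dazl and 3.33% and 23.8% for Saa3. The difference between the fibroblast groups was not tested.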
